A study of Caenorhabditis elegans with 14 samples.

Results

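The comparison described here sets L4 larvae of *ikb-1(nr2027)* against L4 larvae of WT, gene by gene. It rests on 4 of the 14 files of RNA-seq read counts in the series, chosen by their labels alone, 2 of *ikb-1(nr2027)* and 2 of WT. The study asked what the nematode IκB proteins do during development, and measured RNA in mutants of both IκB genes at L1 and at L4. The L4 animals were grown for 36 h at 25 °C after synchronization. *ikb-1(nr2027)* carries a deletion on chromosome I that removes the part of *ikb-1* encoding the ankyrin repeats, and WT is the N2 (Bristol) strain. The other L4 strains, used below only where they show how *ikb-1(nr2027)* differs, were *nfki-1(cer1)*, which has a deletion near exon 2 that leads to a premature stop codon, and a strain that carries both of these L4 alleles, called the double mutant. The L1 libraries came from *ikb-1(cer9)*, a separate allele that lacks the start codon, *nfki-1(cer2)* and WT, all fed for 5 h and then starved for 3 h at 25 °C. The labels give whole synchronized animals as the source, but the extraction notes deposited with every sample also describe dissociated, sorted cells and PCR-amplified cDNA, which the study's methods do not mention for these libraries. Which preparation was used could not be settled here. Each mutant is 1 strain, so its allele and its genetic background cannot be told apart.

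IκB proteins carry ankyrin repeats and are best known in mammals, where they bind NF-κB factors and keep them out of the nucleus until a signal destroys the inhibitor. *C. elegans* has no NF-κB factor but has IκB homologs, *ikb-1* and *nfki-1*, so these proteins act in the worm without that partner. L4 is the last larval stage of the worm. During it the germ line of the hermaphrodite makes sperm and turns to oocytes, the gonad and vulva take their final form, and the epidermis builds the adult cuticle ahead of the last molt.

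The files held 19742489 and 19735958 reads on genes in *ikb-1(nr2027)*, against 21948017 and 21990865 in WT, and 13.4% to 15.7% of the reads in these files fell on no gene. The 2 files of a strain were set against each other before use. Over 5202 genes with mean counts of 50 to 1000, the squared difference between the files was 6.07 times the counting variance in *ikb-1(nr2027)* and 5.37 times in WT. Once the difference that the other strains showed for the same gene was removed, these values were 0.533 and 0.502, whereas the L1 replicates kept 7.14 to 13.5. Apart from a file difference common to the strains, the spread within a pair was thus below the sampling noise, and each pair was counted as 1 sample. The comparison is therefore 1 sample against 1 sample, with no measure of the spread between worm populations at L4. Ratios are log2 of the mean count of the *ikb-1(nr2027)* pair over that of the WT pair after TMM scaling, with 0.5 added to each mean count. Levels are given in CPM, the usual counts-per-million unit relative to the reads on all genes of a file, after the same scaling. The range after a ratio is the exact binomial 95% interval of the mean counts, which covers counting error only. A gene was called higher or lower when its log2 ratio reached 2 in size, without a test.

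The mutated gene followed its label. *ikb-1* (chromosome I, 9685398 to 9688653 in WBcel235) had 78 and 67 counts in *ikb-1(nr2027)*, against 215 and 220 in WT, or 3.43 and 11.6 CPM. Both mutant files were below both WT files, with a log2 ratio of -1.76 (-2.16 to -1.37), so the gene did not reach the fold used for calls. Reads on the part of the gene that the deletion leaves in place are still counted. The other IκB gene, *nfki-1* (listed in the files as C33A11.1, chromosome X, 15355238 to 15363861), had 535 and 521 counts in *ikb-1(nr2027)* and 681 and 692 in WT, a log2 ratio of -0.56 (-0.72 to -0.39). None of the 9 measured genes of the IκB and the Toll and IL-17 pathways was called, and their median log2 ratio was -0.26. The kinase gene *pik-1*, which acts with ACTL-1 and NFKI-1 downstream of the worm IL-17 receptor, had 363 and 386 counts in *ikb-1(nr2027)*, against 177 and 176 in WT, a log2 ratio of 0.90 (0.64 to 1.17). The Toll receptor gene *tol-1* stood at 0.36, the IL-17 receptor gene *ilcr-2* at 0.02 and the TIR adaptor gene *tir-1* at -0.55.

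Of 14812 genes that passed the filter on low counts, *ikb-1(nr2027)* had 1717 (11.6%) at a higher level than WT and 602 (4.06%) at a lower one. The median log2 ratio of all 14812 genes was -0.03, and 49.2% of them lay above 0. Genes called higher took 14.9% and 14.6% of the reads on genes in the *ikb-1(nr2027)* files, against 1.30% and 1.28% in the WT files. Genes called lower took 0.825% and 0.843% in *ikb-1(nr2027)*, against 3.86% and 3.93% in WT. The genes called higher were thus a minor part of the WT reads and a sizeable part of those of the mutant. The counting interval lay wholly beyond the fold for 973 of the genes called higher and 290 of those called lower. Of the 2319 called genes, 2305 differed in the same direction in all 4 pairings of a mutant file with a WT file. Among 8131 genes that averaged 10 CPM or more, 782 (9.62%) were higher and 253 (3.11%) lower. With library totals in place of TMM factors the median of all genes moved to 0.30, and 2321 genes were higher and 377 lower.

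Samples that differed beyond sampling noise within a strain existed only at L1, and they gave the spread for a test. The labels give 2 replicates per strain at L1, whereas the series' design text gives 1, so what separates these libraries, and hence what spread the p values below measure, is not settled. When each L4 pair entered edgeR's quasi-likelihood fit as 1 sample beside the 6 L1 libraries, so that the lone L4 samples were assumed to vary like L1 replicates, 143 of 21275 genes (0.672%) were called higher in *ikb-1(nr2027)* and 6 (0.0282%) lower, where a call needed an adjusted p under 0.01 and a fitted change of 2 or more on the log2 scale. With the L1 replicate number as a block, 849 genes (3.99%) were called higher and 226 (1.06%) lower. All 143 and all 849 genes were also among those past the fold, as were the 6, and so were 208 of the 226. Leaving out any of the 6 L1 libraries left 0 genes called in either direction without the block. In the lists below, genes called "with the L1 spread" come from this fit, first without and then with the block. For scale, replicate 2 and replicate 1 of a strain at L1 differed by that fold in 659 of 18149 genes (3.63%) in *ikb-1(cer9)*, 609 (3.36%) in *nfki-1(cer2)* and 1027 (5.66%) in WT. The files of a pair at L4 differed by it in 157 of 14812 genes (1.06%) in *ikb-1(nr2027)* and 159 (1.07%) in WT.

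**Figure D1:**
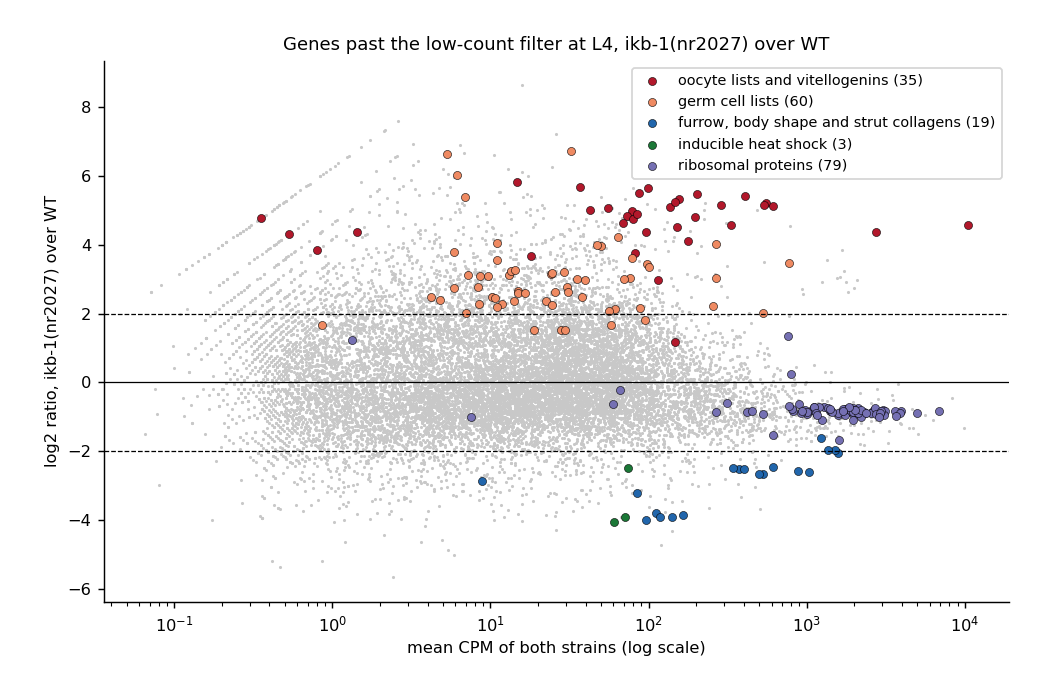
Log2 ratio of L4 *ikb-1(nr2027)* over WT (vertical axis) against the mean CPM of both strains (horizontal axis, log scale) for 14812 genes, with dashed lines at a log2 ratio of 2 in either direction and 5 groups of genes in colour. Yolk genes and most oocyte and germ cell genes lie above the upper line. Cuticle collagens of the furrow, body shape and strut lists and the 3 heat shock genes lie toward or below the lower line. Most of the 79 ribosomal protein genes lie in a tight band just below 0.

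Among genes that averaged 10 CPM or more, the largest increases belonged to 2 collagen genes, a P granule gene and 5 genes known here only by sequence names. *col-135*, a collagen gene at 15129655 to 15131797 on chromosome IV, had 658 and 682 counts in *ikb-1(nr2027)*, against 2 and 0 in WT, a log2 ratio of 8.63 (6.73 to 14.52). *R04D3.3* had 1148 and 1018 counts, against 5 and 7 in WT, a log2 ratio of 7.20 (6.19 to 8.77). *meg-1* (chromosome X, 13927036 to 13929634), which encodes a disordered protein of embryonic P granules, had 1316 and 1408 counts, against 11 in each WT file, a log2 ratio of 6.71 (5.93 to 7.78). In each of these the WT files were near the floor of detection. *col-95* followed at 6.60, and *F02E8.4*, *F14D7.2*, *C01G6.3* and *R09F10.8* at 6.24, 6.19, 6.1 and 6.0. In all, 74 genes called higher had no read in either WT file, so that their fitted ratios depend on the added count. The nuclear receptor gene *nhr-2* was one, with 72 and 75 counts in *ikb-1(nr2027)* and 0 and 0 in WT, a log2 ratio of at least 4.44 when 3 counts per file are taken as the floor. Only 4 genes called lower had no read in either *ikb-1(nr2027)* file.

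The largest decreases were those of 5 cuticle collagen genes, a small heat shock gene and 2 genes with sequence names. *col-176* (chromosome X, 10077597 to 10078728) had 186 and 182 counts in *ikb-1(nr2027)*, against 4364 and 4242 in WT, a log2 ratio of -4.72 (-4.95 to -4.51). *col-41* had 283 and 283 counts, against 5002 and 4983 in WT, a log2 ratio of -4.32 (-4.50 to -4.15). *col-54* stood at -4.29, *hsp-16.2* at -4.06, *R08F11.4* at -4.02, *F11E6.9* at -4.01, the furrow collagen gene *dpy-3* at -4.0 and *col-46* at -3.92. These genes were well measured in both strains, and the paired files agreed closely in all but *hsp-16.2* and *F11E6.9*.

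Genes of yolk, oocytes and eggshell were the lists with the highest medians. In whole animals, more cells of a type and more RNA per cell cannot be told apart, here or in any result below. The paper also raises the possibility that loss of either gene alters how fast larvae or their germ line develop. Whether the strains had reached the same age within L4 at 36 h was not tested here. All 6 vitellogenin genes, which encode the yolk proteins made in the intestine and taken up by oocytes, were called higher, with a median log2 ratio of 5.40 beside -0.03 for all genes. *vit-2* (chromosome X, 5101042 to 5106169) had 110822 and 109157 counts in *ikb-1(nr2027)*, against 4797 and 4609 in WT, a log2 ratio of 4.37 (4.33 to 4.41). *vit-6* had 429531 and 416840 counts, against 16071 and 15656, a log2 ratio of 4.56 (4.54 to 4.58). The vitellogenins together took 2.88% and 2.80% of the reads on genes in *ikb-1(nr2027)*, against 0.0981% and 0.0951% in WT. *vit-3*, *vit-4* and *vit-5* are near-identical copies, so how many of their reads were kept and assigned to each is uncertain. *vit-4* had 842 and 382 counts in the *ikb-1(nr2027)* files and 15 and 3 in the WT files. Only *vit-5* was called with the L1 spread, and all 6 were with the block.

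Of 15 measured genes of the eggshell and the oocyte surface, 14 were higher and 0 lower, with a median log2 ratio of 5.01. *rme-2* (chromosome IV, 5470026 to 5473174), the yolk receptor of the oocyte, had 12210 and 11511 counts in *ikb-1(nr2027)*, against 300 and 286 in WT, a log2 ratio of 5.16 (4.99 to 5.33). The chitin synthase gene *chs-1* had 5765 and 5518 counts, against 151 and 138 in WT, a log2 ratio of 5.10 (4.87 to 5.35). The chondroitin proteoglycan genes *cpg-1* and *cpg-2* stood at 5.41 and 5.11, and *egg-1* and *egg-2*, needed on the oocyte for sperm entry, at 5.33 and 5.06. The exception was *mbk-2*, a kinase gene of the oocyte-to-embryo transition, at 1.18 (1.10 to 1.26). By edgeR with that spread, 8 of the 15 were called higher, and 12 with the block.

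The list of RNA-binding regulators that oocytes store for the early embryo had 14 measured members, all called higher, with a median log2 ratio of 4.79. *puf-5*, a Pumilio-family regulator of oocytes, had 8386 and 8400 counts in *ikb-1(nr2027)*, against 166 and 164 in WT, a log2 ratio of 5.49 (5.27 to 5.72). *oma-2*, a zinc finger gene of oocyte maturation, had 3329 and 3886 counts, against 69 and 70, a log2 ratio of 5.51 (5.17 to 5.87). The embryonic fate regulators *pos-1*, *mex-5* and *pie-1* stood at 5.25, 4.81 and 3.68. The lowest of the 14 was *lin-41*, a TRIM-NHL gene of oocyte growth and of larval timing, at 2.98. *puf-6* had 5 and 25 counts in *ikb-1(nr2027)* and 0 and 0 in WT, a log2 ratio of at least 2.14, and with it at that bound the median was 4.78. In the fit with L1 replicates, 9 of the 14 were called higher, and 13 with the block.

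**Figure D2:**
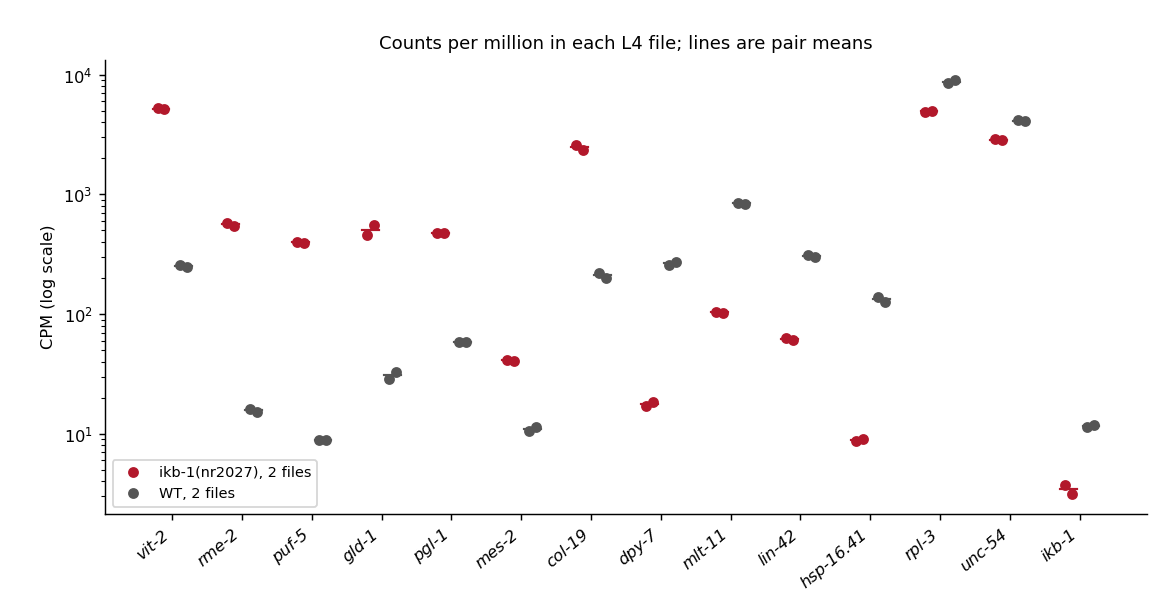
CPM in each of the 4 files (vertical axis, log scale) for 14 genes, with *ikb-1(nr2027)* files left in red, WT files right in grey and lines at the pair means. The paired files of a strain nearly coincide in every gene shown, and the strains are far apart from *vit-2* to *pgl-1* and from *col-19* to *hsp-16.41*, but near each other for *rpl-3* and *unc-54*.

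Most genes of the P granule, meiotic switch and meiotic chromosome lists were called higher as well. Of 15 measured P granule genes, which encode parts of the RNA-rich granules of germ cells, 14 were called higher and 0 lower, with a median log2 ratio of 3.04. *pgl-1*, a core granule protein gene, had 10129 and 10070 counts in *ikb-1(nr2027)*, against 1083 and 1089 in WT, a log2 ratio of 3.04 (2.95 to 3.13). *glh-1*, which encodes a Vasa-type RNA helicase, had 9227 and 8627 counts, against 1745 and 1652, a log2 ratio of 2.21 (2.14 to 2.29). *meg-2* and *meg-4* stood at 6.62 and 5.39, and *mut-16*, a scaffold gene of small RNA amplification, was the member not called, at 1.67 (1.53 to 1.82). Against the L1 spread, 3 of the 15 were called higher, and 12 with the block.

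Of 12 genes that govern the switch from germ cell proliferation to meiosis, 10 were higher and 0 lower, with a median of 3.09. *gld-1*, a translational repressor that drives meiotic entry, had 9605 and 11744 counts in *ikb-1(nr2027)*, against 540 and 615 in WT, a log2 ratio of 4.03 (3.91 to 4.15). *glp-1*, the Notch receptor gene that keeps germ cells dividing, had 3005 and 3120 counts, against 218 and 222, a log2 ratio of 3.62 (3.42 to 3.82). Genes with opposite roles in this switch were thus higher together. The Pumilio-family genes *fbf-1* and *fbf-2* stood at 2.73 and 2.02, and the members not called were *gld-2* at 1.81 and *lst-1* at 1.52. Under the L1 spread 3 were called, and 8 with the block.

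Of 33 genes of meiotic chromosome pairing, axes, synapsis and recombination, 30 were higher and 0 lower, with a median of 2.62 and a range of 1.53 to 4.04. *zim-2*, which pairs a chromosome with its homolog, had 450 and 424 counts in *ikb-1(nr2027)*, against 22 and 24 in WT, a log2 ratio of 4.04 (3.46 to 4.74). *syp-4*, of the synaptonemal complex, stood at 3.99, *spo-11*, the enzyme gene of meiotic double-strand breaks, at 3.23, and the axis gene *htp-3* at 2.97. The lowest were *rad-51* and *pch-2*, at 1.53 each. By the spread of L1 replicates, 5 of the 33 were called, and 26 with the block.

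The 19 measured Argonaute genes divided. *hrde-1*, *wago-1*, *wago-4*, *ppw-2* and *alg-3* were called higher, at 3.76, 3.16, 2.87, 2.31 and 2.39, and they encode proteins of germline small RNA pathways. *hrde-1*, a nuclear Argonaute of heritable silencing, had 7701 and 8352 counts in *ikb-1(nr2027)*, against 505 and 543 in WT. The germline genes *csr-1* and *prg-1* had ratios of 1.45 and 1.18, and *alg-1* and *alg-2*, which act with miRNAs in the soma, had -0.31 and -0.23. The median of the 19 was 1.18, and 2 were called with the L1 spread, 5 with the block. Among 10 measured sex determination genes *fem-3*, *fog-2* and *fog-1*, all of which promote sperm fate in the germ line, were called higher at 3.32, 2.35 and 2.18, while *fem-2*, *fem-1* and *fog-3*, which have the same role, stood at 0.49, 0.35 and 0.10. *tra-1*, the final regulator of somatic sex, stood at 0.18 (0.06 to 0.31). The median of the 10 was 0.83, with 0 called with the L1 spread and 2 with the block.

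Most sperm genes did not reach the fold. Of 55 measured sperm genes 22 were called higher and 0 lower, with a median log2 ratio of 1.82, and 52 of the 55 lay above 0. *ssq-2*, a small sperm protein gene, had 3616 and 3527 counts in *ikb-1(nr2027)*, against 371 and 386 in WT, a log2 ratio of 3.06 (2.90 to 3.21). *spe-15*, a myosin gene needed to partition cell contents in the dividing spermatocyte, stood at 2.02 (1.87 to 2.18). With the L1 spread 0 of the 55 were called, and 8 with the block. Only 9 of 31 genes of the major sperm protein family passed the filter, 4 of them called higher (*msp-45*, *msp-31*, *msp-64* and *msp-152*), with a median of 1.99. These copies are near-identical, and their counts were low and split unevenly between files. *msp-45*, for example, had 71 and 4 counts in *ikb-1(nr2027)*, against 8 and 1 in WT, and its log2 ratio of 2.75 became -0.33 without *ikb-1(nr2027)* replicate 1. The whole family took at most 0.00223% of the reads in any of the 4 files, and how reads that fit several copies were shared out is not given in the sources used here, so these ratios are uncertain.

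**Figure D3:**
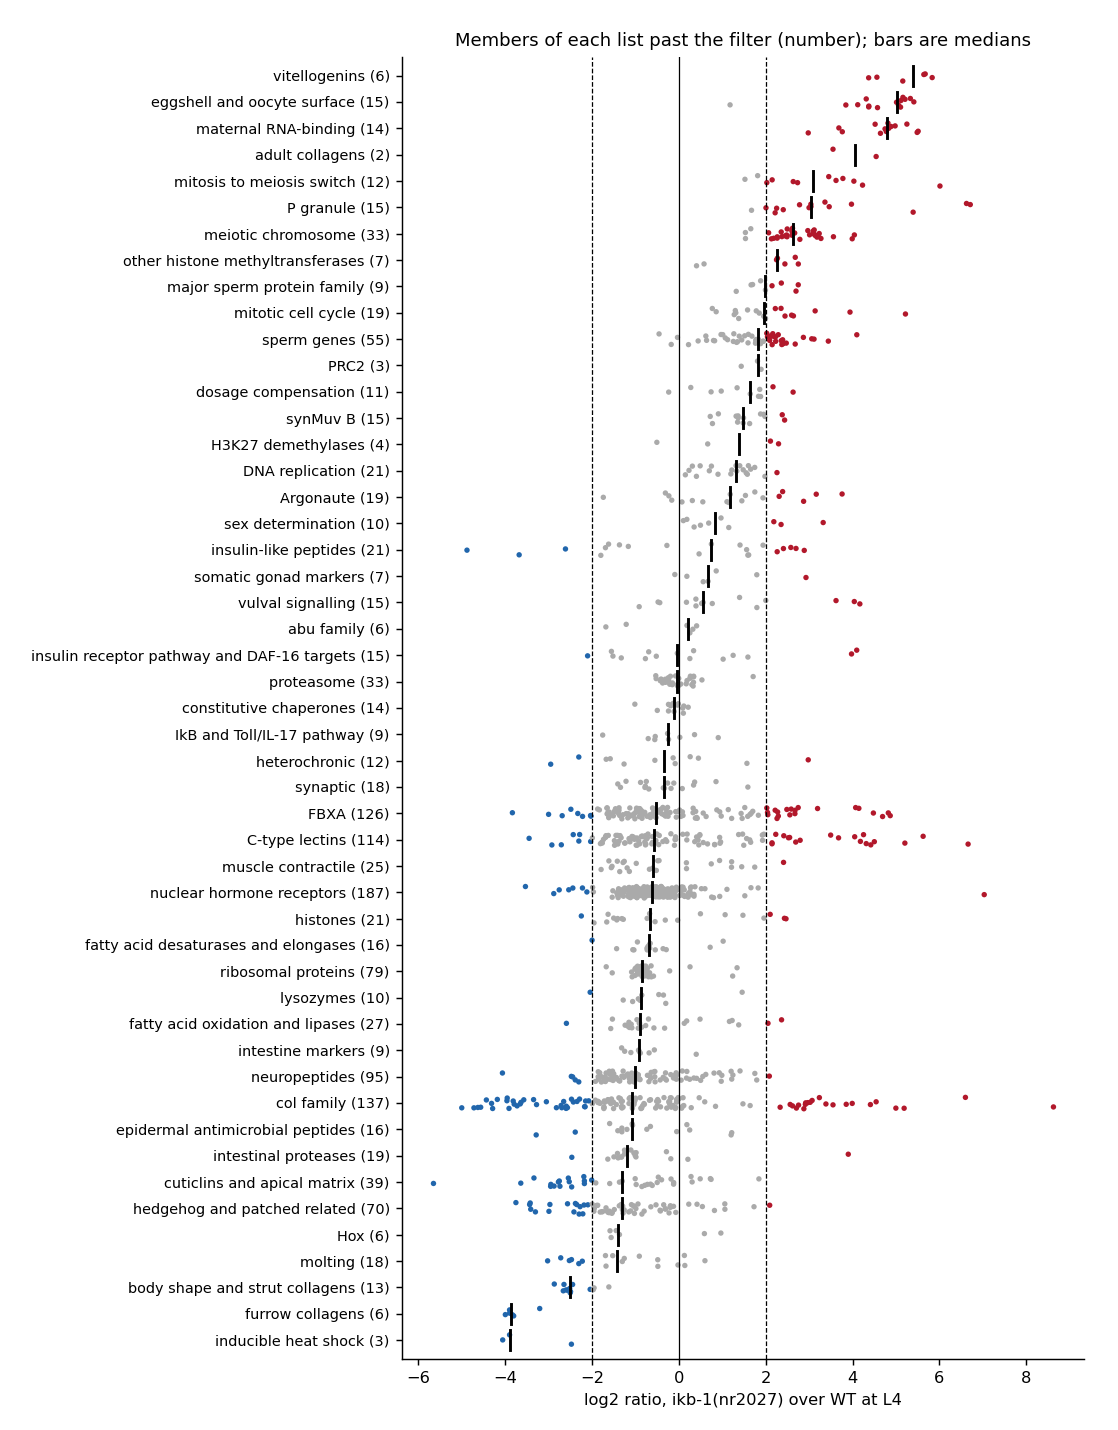
Log2 ratio of L4 *ikb-1(nr2027)* over WT for every measured member of each gene list (points), with bars at the list medians and the lists sorted by median. Yolk, oocyte, adult collagen, P granule and meiotic lists lie at the high end with medians from 2.62 to 5.40, that of the adult collagens at 4.04. Furrow collagens and inducible heat shock genes lie at the low end with medians of -3.87 and -3.90.

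The study also examined chromatin regulators, above all Polycomb repressive complex 2 (PRC2), which places the repressive H3K27 methyl mark. None of the 3 PRC2 genes reached the fold, although each was higher in both mutant files than in both WT files. *mes-2* (chromosome II, 14383973 to 14388454), the methyltransferase subunit gene, had 870 and 867 counts in *ikb-1(nr2027)*, against 199 and 214 in WT, a log2 ratio of 1.89 (1.67 to 2.12). *mes-3* had 47.2 CPM, against 13.4 in WT, a log2 ratio of 1.81 (1.61 to 2.02), and *mes-6*, the subunit gene with WD repeats, 1078 and 1138 counts, against 345 and 379, a log2 ratio of 1.43 (1.26 to 1.61). With library totals in place of TMM factors, 2 of the 3 passed the fold. By edgeR with that spread, none of the 3 was called, and edgeR gave adjusted p values of 0.019, 0.021 and 0.080, or 0.0039, 0.0062 and 0.010 with the block.

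Of 7 other histone methyltransferase genes 5 were called higher and 0 lower, with a median of 2.27. They were *set-32* at 2.75, *met-2*, an H3K9 enzyme gene, at 2.68, *met-1*, an H3K36 enzyme gene, at 2.44, *set-2*, an H3K4 enzyme gene, at 2.27 and *mes-4*, an H3K36 enzyme gene of the germ line, at 2.25. *mes-4* had 1142 and 1178 counts in *ikb-1(nr2027)*, against 219 and 212 in WT. *met-2* alone was called with the L1 spread, and all 5 were with the block. Among 4 measured genes of H3K27 demethylases and their relatives, *jmjd-1.2* and *jmjd-3.3* were called higher at 2.29 and 2.11, *utx-1* stood at 0.66 and *jmjd-3.1* at -0.51. *jmjd-1.2* had 2364 and 2417 counts, against 426 and 435 in WT, whereas *jmjd-3.3* had only 19 and 19, against 4 and 3. In the fit with L1 replicates, 0 of the 4 were called, and 1 with the block.

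All 15 synMuv B genes, which repress germline genes in the soma among other roles, lay above 0, with a median of 1.48, and *lin-54* and *lin-9*, both of the DREAM complex, were called higher at 2.43 and 2.38. The retinoblastoma homolog gene *lin-35* had 1531 and 1535 counts in *ikb-1(nr2027)*, against 483 in each WT file, a log2 ratio of 1.49 (1.34 to 1.64). Of 11 genes of X chromosome dosage compensation and its switch, the condensin gene *capg-1* and the sex switch gene *xol-1* were called higher, at 2.17 and 2.63, and the median was 1.64. *xol-1* had only 29 and 19 counts, against 3 and 3 in WT. Against the L1 spread, none of these genes was called, and 2 synMuv B genes and 1 dosage compensation gene were with the block. None of the 6 Hox genes was called. The anterior gene *ceh-13* stood at 0.96, *lin-39* at 0.59, and *php-3*, *egl-5*, *mab-5* and *nob-1* at -1.37, -1.45, -1.56 and -1.59, so the list held both signs.

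Genes of mitosis and of DNA replication all lay above 0, but most did not reach the fold. Of 19 mitotic genes 8 were called higher and 0 lower, with a median of 1.95. The B cyclin gene *cyb-3* had 6829 and 6547 counts in *ikb-1(nr2027)*, against 686 and 657 in WT, a log2 ratio of 3.14 (3.02 to 3.25), and the cyclin E gene *cye-1* stood at 2.64. *cyb-2.1* and *cyb-2.2* are close copies and are uncertain as single genes. Of 21 DNA replication genes only the helicase subunit gene *mcm-7* was called higher, at 2.26 (2.16 to 2.36), although all 21 lay above 0, with a median of 1.31. Under the L1 spread no gene of either list was called, and with the block 8 mitotic genes and 1 replication gene were. The 21 measured histone genes had a median of -0.68, with *his-67*, *hil-4* and *his-74* called higher at 2.47, 2.43 and 2.1, and *his-62* called lower at -2.25. Most histone genes are multicopy, and 60 of the 81 in the files did not pass the filter.

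Cuticle collagen genes had calls in both directions. All 6 furrow collagen genes, whose products mark the circular furrows of the cuticle, were called lower, with a median log2 ratio of -3.87. *dpy-7* (chromosome X, 7536467 to 7537792) had 362 and 387 counts in *ikb-1(nr2027)*, against 4824 and 5080 in WT, a log2 ratio of -3.90 (-4.06 to -3.75). *dpy-10* had 353 and 339 counts, against 2845 and 2810, a log2 ratio of -3.21 (-3.37 to -3.05), the smallest change of the 6. The others lay between -3.81 and -4.0. By the spread of L1 replicates, none of the 6 was called, and all 6 were with the block.

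Of 13 measured collagen genes of body shape and struts 10 were called lower and 0 higher, with a median of -2.51. *sqt-3* had 5872 and 6425 counts in *ikb-1(nr2027)*, against 31209 and 34693 in WT, a log2 ratio of -2.60 (-2.64 to -2.56). *rol-6* stood at -2.52, and *bli-1*, whose product is part of the struts of the adult cuticle, at -2.51. The list took 0.401% and 0.403% of the reads in *ikb-1(nr2027)*, against 1.44% and 1.45% in WT. The list of adult collagens held 2 measured genes, and both were called higher, unlike *bli-1* and *bli-2* of the strut list, which were called lower at -2.51 and -2.65. *col-19* had 54371 and 50189 counts, against 4125 and 3774 in WT, a log2 ratio of 3.55 (3.50 to 3.59), and *col-119* had 32333 and 31364, against 1211 and 1205, a log2 ratio of 4.54 (4.46 to 4.63). With the L1 spread no gene of these lists was called, and 7 of the 13 and 1 of the 2 were with the block. Across the 137 measured genes named *col*, 22 were higher and 35 lower, with a median of -1.07 and a range of -5.0 to 8.63. Among the most abundant of the family, *col-124*, *col-129*, *col-139*, *col-181* and *col-122* stood between 2.61 and 3.23. The family as a whole took 5.61% and 5.36% of the reads in *ikb-1(nr2027)*, against 2.93% in each WT file, so its summed level was higher although more members were lower. By edgeR with that spread, 3 *col* genes were called higher and 1 lower, and with the block 14 and 17.

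In genes of the matrix laid down before the cuticle and of the molt, every call was toward a lower level, and most members were not called. Of 39 measured cuticlins and other apical matrix genes 16 were called lower and 0 higher, with a median of -1.31 and 6 members above 0. *noah-1*, a zona pellucida domain gene of the temporary matrix, had 1782 and 1788 counts in *ikb-1(nr2027)*, against 12145 and 12246 in WT, a log2 ratio of -2.95 (-3.02 to -2.88). The lipocalin gene *lpr-3* stood at -3.64 and the leucine-rich repeat gene *sym-1* at -2.96. Of 18 molting genes 6 were called lower and 0 higher, with a median of -1.42 and 3 members above 0. *mlt-11*, which encodes a protease inhibitor needed to molt, had 2199 and 2172 counts, against 15829 and 15626 in WT, a log2 ratio of -3.03 (-3.09 to -2.96). *lin-42*, the worm Period homolog gene that paces the molts, had 1323 and 1284 counts, against 5791 and 5612, a log2 ratio of -2.31 (-2.40 to -2.22). The nuclear receptor gene *nhr-23*, an upstream driver of molting, lay on the other side of 0 at 0.60 (0.44 to 0.76). In the fit with L1 replicates, none of these was called, and with the block 9 of the 39 and 4 of the 18 were called lower.

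Hedgehog-related and patched-related genes, many of them tied to the epidermis and the molt, had 16 members lower and 1 higher of 70, with a median of -1.32. *wrt-10* had 342 and 400 counts in *ikb-1(nr2027)*, against 4047 and 4820 in WT, a log2 ratio of -3.76 (-3.91 to -3.60), whereas *ptc-1*, a patched homolog gene that acts in the germ line, had 4156 and 4191, against 874 and 858, a log2 ratio of 2.09 (1.98 to 2.2). With the block 1 was called higher and 4 lower, and without it none. Of 12 heterochronic genes, which order the larval stages, *lin-41* was called higher at 2.98 and *lin-42* and *let-7* lower at -2.31 and -2.95, the miRNA gene *let-7* on only 8 and 11 counts in *ikb-1(nr2027)*, against 51 and 85 in WT. *lin-14* stood at -0.09, *lin-28* at 0.45 and *lin-29*, which promotes the change to adult epidermis, at -1.26 (-1.49 to -1.05). *lin-41* and *lin-42* belong to other lists as well. Among 15 genes of Notch and EGF signalling in vulval development, *lin-3*, the EGF ligand gene, *apx-1*, a Notch ligand gene, and *glp-1* were called higher, at 4.17, 4.04 and 3.62. *lin-3* had 393 and 439 counts, against 19 and 21 in WT. The receptor genes *let-23* and *lin-12* had ratios of 1.40 and 0.17, and the median was 0.56. Against the L1 spread, 2 of the 15 were called, and 3 with the block.

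The 3 inducible heat shock genes that passed the filter were called lower, with a median of -3.90. *hsp-16.2* (chromosome V, 1804334 to 1804957) had 176 and 113 counts in *ikb-1(nr2027)*, against 2691 and 1583 in WT, a log2 ratio of -4.06 (-4.31 to -3.82). *hsp-16.41* had 184 and 191 counts, against 2605 and 2360, a log2 ratio of -3.90 (-4.12 to -3.69), and *hsp-70* 476 and 474, against 2363 and 2316, a log2 ratio of -2.48 (-2.62 to -2.34). The *hsp-16* genes are paired copies whose other members did not pass the filter, so how many of their reads were kept and assigned to each is uncertain. None of the 3 was called with the L1 spread, with or without the block. By contrast, none of 14 constitutive chaperone genes was called, and their median was -0.12, from -1.02 in *hsp-3*, a chaperone gene of the endoplasmic reticulum, to 0.21 in the chaperonin gene *cct-8*.

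Defence and digestion lists had medians below 0, and the C-type lectins had calls in both directions. Of 114 C-type lectin genes 19 (16.7%) were higher and 7 (6.14%) lower, beside 11.6% and 4.06% of all genes, with a median of -0.57. At the ends of that list *clec-223* had 288 and 283 counts in *ikb-1(nr2027)*, against 4 and 0 in WT, a log2 ratio of 6.66, and *clec-17* had 121 and 128, against 1192 and 1224, a log2 ratio of -3.45. Of 16 epidermal antimicrobial peptide genes *cnc-3* and *nlp-31* were called lower at -3.29 and -2.39, while *nlp-26* stood at 1.22, and the median was -1.07. Of 10 lysozyme genes *lys-3* was called lower at -2.05 and *lys-7* stood at 1.46, with a median of -0.88. Of 19 intestinal protease genes *asp-17* was called higher at 3.90 and *cpr-4* lower at -2.47, with a median of -1.2. The protease list took 1.77% and 1.73% of the reads in *ikb-1(nr2027)*, against 3.41% and 3.33% in WT. Under the L1 spread 1 lectin gene was called higher and 0 lower, and with the block 7 and 2. With the block 1 antimicrobial gene and 1 protease gene were called lower, and no lysozyme gene. Of 126 FBXA genes, of the F-box family, 20 (15.9%) were higher and 8 (6.35%) lower, with a median of -0.54, and with the block 8 and 1 were called.

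Metabolic and insulin genes showed no common direction among the called members. Of 16 fatty acid desaturase and elongase genes only *elo-4* reached the fold, at -2.0 (-2.24 to -1.78), with a median of -0.70. Of 27 genes of fatty acid oxidation and lipases *acdh-8* and *acdh-5* were called higher at 2.36 and 2.05 and the lipase gene *lipl-6* lower at -2.59, with a median of -0.91. Of 21 insulin-like peptide genes *daf-28*, *ins-7*, *ins-4*, *ins-28* and *ins-34* were called higher, at 2.89, 2.70, 2.58, 2.41 and 2.26, and *ins-35*, *ins-11* and *ins-27* lower, at -4.88, -3.68 and -2.61. *daf-28*, an agonist of the insulin receptor, had 42 and 49 counts in *ikb-1(nr2027)*, against 5 and 5 in WT. *ins-35* had 6 and 8 counts, against 188 and 202. Of 15 genes of the insulin receptor pathway and its targets, 2 were called higher, among them *sip-1*, a small heat shock protein gene, at 3.97. *dod-3* was called lower at -2.1, *daf-2*, the receptor gene, stood at 1.02 and *daf-16*, the FOXO transcription factor gene, at 0.34. By the spread of L1 replicates, 2 genes of these lists were called higher, *sip-1* among them, and with the block 1 oxidation gene was also called higher and 1 elongase, 1 insulin-like and 1 target gene lower.

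Markers of the main tissues were read in both strains. The muscle contractile list took 1.21% and 1.18% of the reads in *ikb-1(nr2027)*, against 1.79% and 1.75% in WT, and 1 of its 25 genes was called, *tni-4* at 2.41, with a median of -0.61. *unc-54*, the main body-wall myosin gene, had 61531 and 60022 counts in *ikb-1(nr2027)*, against 77649 and 76482 in WT, a log2 ratio of -0.52 (-0.54 to -0.51). The 9 intestine markers took 0.951% and 0.925%, against 1.71% and 1.66% in WT, with 0 called and a median of -0.91, and *elt-2*, the regulator of intestinal fate, stood at -0.93. The 18 synaptic genes took 0.0494% and 0.0516%, against 0.0613% and 0.0640%, with 0 called and a median of -0.35. The 7 somatic gonad markers took 0.0946% and 0.0932%, against 0.0715% and 0.0707%, and *inx-8*, a gap junction gene of the gonadal sheath, was called higher at 2.93, with a median of 0.67. None of *unc-54*, *elt-2* and *inx-8* was at 0 in any of the 4 files, and the part of tissue makeup in the results above was not tested.

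Of 95 neuropeptide genes *flp-33* (1.05%) was called higher at 2.08 and 5 (5.26%) were lower, beside 11.6% and 4.06% of all genes. The lower ones included *nlp-23* at -4.07 and *nlp-17* at -2.45, and the median was -1.01. Of 187 nuclear hormone receptor genes 1 (0.535%) was higher, *nhr-2*, and 7 (3.74%) lower, with a median of -0.62. In both lists the share called lower was near that of all genes. None of the 79 cytosolic ribosomal protein genes was called, but 76 of them lay below 0, with a median of -0.84. They took 11% of the reads in each *ikb-1(nr2027)* file, against 15.6% in each WT file. *rpl-3* had 102720 and 106423 counts, against 159635 and 167279 in WT, a log2 ratio of -0.82 (-0.83 to -0.81). Paralogs in this list differed, with *rpl-11.1* at 1.34 and *rpl-11.2* at -1.68. The 33 proteasome genes had a median of -0.04 and no call, and the highest was *rpn-6.2* at 1.71. The 6 measured *abu* genes had a median of 0.22 and no call. With library totals in place of TMM factors the medians of the constitutive chaperones, the proteasome genes, the IκB, Toll and IL-17 pathway and the insulin receptor pathway lay above 0, that of the chaperones at 0.21.

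The log2 ratio moved with the length of the genes' exons. Genes were sorted into 10 equal bins of exon length. In the bin with the shortest exons (20 to 550 bases) the median was -0.47, and in the bin with the longest (3115 to 56044 bases) it was 0.68, with every bin in between in rising order. The share of genes called higher was 9.90% in the shortest bin and 14.8% in the longest, and the share called lower 7.15% and 1.17%. The same medians were -0.46 and 0.70 for L4 *nfki-1(cer1)* over WT, 0.16 and -0.17 for the L4 double mutant over WT, and -0.01 and 0.03 for L1 *ikb-1(cer9)* over WT. The 3 L4 comparisons share the WT files. When each ratio was taken relative to the median of its length bin, a step chosen after the data were seen, 1770 of 14539 genes were higher and 486 lower. The median became 4.71 for vitellogenins, 4.68 for eggshell and oocyte surface, 4.75 for maternal RNA-binding genes, 2.67 for P granule genes, 2.67 for meiotic chromosome genes, -3.69 for furrow collagens, -0.41 for ribosomal proteins and 1.46 for PRC2. It became 0.96 for dosage compensation, -0.21 for histones, -0.60 for neuropeptides, with 2 called lower in place of 5, and -0.82 for heterochronic genes, and that of the proteasome turned to 0.11. In that scale 1 of 7 other methyltransferase genes was past the fold in place of 5, and 0 of 4 demethylase genes in place of 2. The part of exon length in each result was not tested otherwise.

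**Figure D4:**
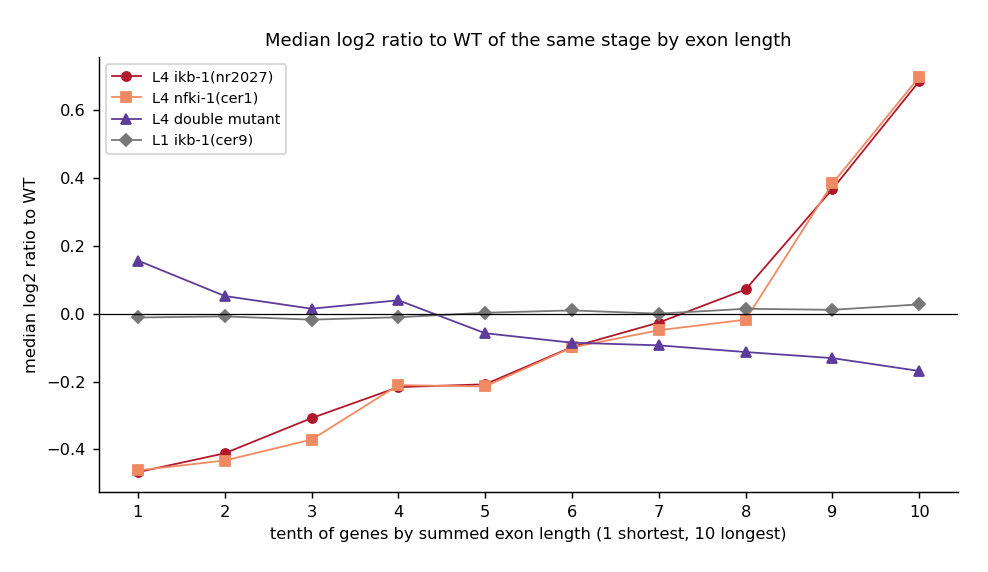
Median log2 ratio of the genes in each of 10 bins of exon length (horizontal axis, shortest to longest) for L4 *ikb-1(nr2027)* over WT and for 3 other comparisons. The median of *ikb-1(nr2027)* moves from -0.47 to 0.68 and that of *nfki-1(cer1)* from -0.46 to 0.70, the double mutant slopes the other way, and L1 *ikb-1(cer9)* stays near 0.

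*ikb-1(nr2027)* was set directly against the other L4 mutants, again 1 sample against 1 sample. Over *nfki-1(cer1)*, *ikb-1(nr2027)* had 54 of 14812 genes (0.365%) at a higher level and 42 (0.284%) at a lower one. No gene that averaged 10 CPM or more reached 2. The largest were *K01D12.9*, *hsp-70* and *nfki-1* itself, at 1.97, 1.91 and 1.87, and *C50F7.5* and *clec-17*, at -1.88 and -1.70. *hsp-70* had 22.5 CPM in *ikb-1(nr2027)* and 5.95 in *nfki-1(cer1)*, with WT at 125 CPM, so it was below WT in both and less so in *ikb-1(nr2027)*. *clec-17* had 5.89 CPM in *ikb-1(nr2027)* and 19.1 in *nfki-1(cer1)*, with WT at 64.7. *lea-1*, a gene of the desiccation-linked LEA family, had 384.8 CPM in *ikb-1(nr2027)*, 950.5 in *nfki-1(cer1)* and 140.5 in WT.

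Over the double mutant, *ikb-1(nr2027)* had 369 genes (2.49%) at a higher level and 160 (1.08%) at a lower one. *rad-50*, a gene of DNA break repair, had 127 CPM in *ikb-1(nr2027)*, against 9.19 in the double mutant, with WT at 7.44, a log2 ratio of 3.78 (3.56 to 4.01). The laminin gene *lam-3* stood at 3.81, the DNA polymerase theta gene *polq-1* at 2.95 and the giant muscle gene *ttn-1*, with 56044 exon bases, at 2.85. The medians by exon length slope in opposite directions in these strains, and the part of exon length in this direct comparison was not tested. On the other side, *R08F11.4* had 1.82 CPM in *ikb-1(nr2027)*, against 29.5 in the double mutant, with WT at 29.9, a log2 ratio of -4.0 (-4.51 to -3.53), and *far-3*, a fatty acid and retinol binding protein gene, stood at -3.25. The double mutant carries the same *ikb-1* allele, and *R08F11.4* was at the WT level in it.

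For the lists, the median log2 ratios over WT are given in the order *ikb-1(nr2027)*, *nfki-1(cer1)*, double mutant, which share the WT files. They were 5.40, 4.56 and 3.34 for vitellogenins, 5.01, 5.19 and 3.14 for eggshell and oocyte surface genes, 4.79, 4.93 and 3.05 for maternal RNA-binding genes, and 3.04, 3.1 and 1.73 for P granule genes. They were 2.62, 2.90 and 1.52 for meiotic chromosome genes, 1.82, 1.79 and 1.82 for sperm genes, 1.81, 1.92 and 0.10 for PRC2, and 2.27, 2.51 and 0.35 for the other methyltransferases. The lists lower in *ikb-1(nr2027)* had medians of -3.87, -4.16 and -3.24 for furrow collagens, -2.51, -2.96 and -1.13 for body shape and strut collagens, -1.42, -1.74 and -1.16 for molting genes, and -3.90, -4.52 and -1.85 for inducible heat shock genes. In these lists the double mutant was nearer to WT than *ikb-1(nr2027)* was, except in sperm genes, where the medians were equal to 2 decimals.

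**Figure D5:**
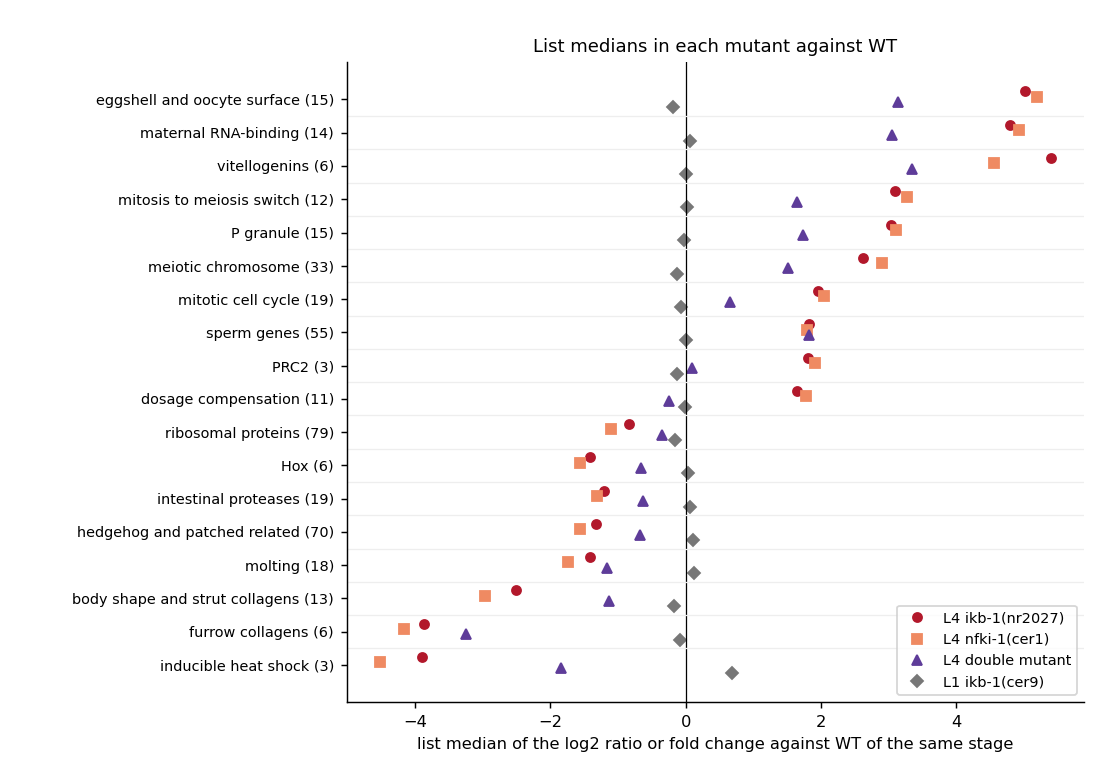
Median log2 ratio of 18 gene lists in 4 comparisons with WT of the same stage, L4 *ikb-1(nr2027)*, L4 *nfki-1(cer1)*, the L4 double mutant and L1 *ikb-1(cer9)*, with the number of measured genes beside each list. The points of the L4 single mutants nearly coincide in most lists, and those of the double mutant lie closer to 0 in most. Those of L1 *ikb-1(cer9)* lie near 0 except for inducible heat shock genes, at 0.68.

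The other *ikb-1* allele was measured at L1, in libraries the L4 comparison did not use. Its deletion was visible, since *ikb-1* had 1.63 and 2.76 CPM in *ikb-1(cer9)*, against 52.9 and 48.2 in WT, a log2 fold change of -4.50. In edgeR's fit, 0 of 21275 genes (0%) were called in *ikb-1(cer9)* against WT, with a smallest adjusted p of 0.126, or 0.0560 with the replicate block. At an unadjusted p below 0.05 there were 322 genes, and DESeq2 called 0 higher and 4 lower. The 1717 genes higher in L4 *ikb-1(nr2027)* had a median log2 fold change of -0.04 in L1 *ikb-1(cer9)*, and 726 of them lay above 0. The 602 genes lower at L4 had a median of 0.01 at L1, and 287 of them lay below 0. Of these, 47 and 21 had an unadjusted p below 0.05 at L1. The L1 medians of the lists were 0.01 for vitellogenins, -0.18 for eggshell and oocyte surface, -0.03 for P granule genes, -0.13 for PRC2, -0.09 for furrow collagens and 0.68 for inducible heat shock genes. Many of these genes were near the floor at L1, and the allele, the stage and feeding all differ between the comparisons, so these differences cannot be told apart. The difference between the L4 and the L1 change was past the thresholds in 0 genes in either direction without the block, and in 578 genes higher and 112 lower with it.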

How the data were processed

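The values are counts of reads per gene that the authors deposited without normalization. According to the study's methods, total RNA was sequenced, adapters were trimmed with Trim Galore, and reads were aligned to WBcel235 with Bowtie2 and counted with HTSeq. The submitters' processing notes also name CASAVA 1.4, FastQC and DESeq2. Lines that name no gene were left out of the totals. The files also hold a line of reads left out for low alignment quality, and near-identical copies of a gene are uncertain.

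Files were scaled with TMM over the 8 L4 files and filtered with filterByExpr at a minimum count of 10, with edgeR (version 4.0.16) run in R (4.3.3) beside limma (version 3.58.1), and DESeq2 (version 1.42.0) served as the alternative. Tables were made in Python (3.11.15) using pandas (version 2.3.3) over numpy (version 2.4.6), intervals using scipy (version 1.17.1) and plots using matplotlib (version 3.10.9). p values were adjusted by the Benjamini-Hochberg method over all genes of the fit. Intervals are exact (Clopper-Pearson), at 95%, on mean counts rounded to whole reads. Nothing in the labels says that L1 replicates were separate cultures, so p values measure the spread between these libraries. The L1 replicate numbers paired the libraries. The difference between replicates 2 and 1 correlated between strains over 13875 genes at Pearson's r of 0.737 for WT with *nfki-1(cer2)*, 0.477 for WT with *ikb-1(cer9)* and 0.495 for *nfki-1(cer2)* with *ikb-1(cer9)*.

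Gene names, positions and exon lengths came from Ensembl's WBcel235 annotation, which matched 41087 of 42048 genes in the files. The comparison, the gene lists and the alternatives were chosen with earlier results of these data known. Named are *ikb-1* and *nfki-1*, and the 8 largest increases and 8 largest decreases among genes that averaged 10 CPM or more with the same sign in every pairing of files. The rule also names the measured members of lists with up to 20 genes in the files, measured or not. Of longer lists, the rule takes the 5 members of highest mean CPM and the 3 largest increases and 3 largest decreases of at least 1 CPM. One gene that the rule names is not reported here. Other genes were named after their values were seen, among them those of the direct comparisons of mutants. The list of mitochondrially encoded genes matched 0 genes in the files. The edgeR fit with the L1 spread, without the block, was tested on simulated counts. Alternatives were RLE factors, library totals, TMM on 4 files, an added count of 2, other filters, other folds, each file or library left out, DESeq2, the replicate block, files as replicates and exon length.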

Additional observations from a re-analysis of the deposited data

Results flagged for a closer look

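The L4 change of *ikb-1(nr2027)* and the L1 change of *ikb-1(cer9)* were compared in 1 edgeR fit. With the replicate block, the L4 change was the higher one in 578 genes and the lower one in 112, at an adjusted p below 0.01 and a difference in log2 of at least 2. Without the block the fit called 0 genes in either direction. The comparisons differ in allele, stage and feeding, which cannot be told apart.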

How the results depend on the processing

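Of the 1717 genes higher and 602 lower in L4 *ikb-1(nr2027)*, 1154 to 2321 and 377 to 1016 were past the fold under other scalings, filters and added counts. The ends of these ranges were 2321 higher and 377 lower with library totals, 1016 lower without a filter, and 1154 higher with at least 10 counts in every file. At a log2 ratio of 1 there were 3984 higher and 2938 lower, and with the interval wholly past the fold 973 and 290. Leaving out 1 of the 4 files gave 1707 to 1823 higher and 624 to 715 lower. Taking the files as replicates, edgeR gave 1688 higher and 593 lower, or 1763 and 619 with the replicate block, and DESeq2 1634 and 520, with p values that compare files and not worm populations.

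With the L1 spread, edgeR called 143 higher and 6 lower. With the replicate block it called 849 and 226. With library totals there were 422 higher, without a filter 638 and 102, with at least 10 counts in every sample 354 and 35, and with DESeq2 936 and 322. Without any 1 of the 6 L1 libraries the range was 0 to 0 in both directions. The L1 contrast of *ikb-1(cer9)* gave 1 gene lower without a filter and 4 with DESeq2. The difference of the L4 and L1 changes gave 578 higher and 112 lower with the replicate block and 274 and 31 without a filter, against 0 and 0. The cause of these changes was not tested.

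Of 202 named genes that were called, 196 to 201 stayed past the fold under the other scalings and added count (199 of 200 with a value when only the 4 files were scaled), 197 to 200 without 1 file, and 176 of 201 after centring on exon length. With at least 10 counts in every file 160 of the 202 had a value, and all 160 stayed past the fold. The sign turned in *msp-45* alone, which was at -0.33 to 4.48 without 1 file and at 2.75 with all. A gene of a few counts has a wide interval, and the design leaves the spread between L4 populations unmeasured.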

Other observations

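Gene families were read off by the stem of their names. Of 189 families with at least 8 measured genes, 140 had no gene in a list. Those given here lie outside the lists and were chosen after their values were seen. Over all genes 11.6% were called higher and 4.06% lower. Of 32 *bath* genes, which encode proteins with MATH and BTB domains, 17 were called higher and 0 lower in L4 *ikb-1(nr2027)*, with a median log2 ratio of 2.24 beside -0.03 for all genes. *bath-19* had 100 and 122 counts in *ikb-1(nr2027)*, against 6 and 6 in WT, a log2 ratio of 3.92 (2.86 to 5.51), and *bath-26* lay at the other end at -1.60. Of 12 *chil* genes, which encode chitinase-like proteins, 6 were higher, with a median of 2.17. *chil-22* had 187 and 171 counts, against 14 and 10 in WT, while *chil-27* had 13 and 13, against 0 and 0. Of 21 *nep* genes, of the neprilysin family of peptidases, 9 were higher and 0 lower, and *nep-4* stood at 3.07. Of 20 *fbxc* genes 8 were higher, *fbxc-32* with a mean of 5.06 CPM, against 0.0268 in WT. In edgeR's fit with the L1 spread and the replicate block, 8 *bath*, 1 *chil*, 4 *fbxc* and 0 *nep* genes were called higher. No test of a family was run.

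In other families the calls were toward a lower level. Of 9 measured *bus* genes, many of which shape the glycans of the cuticle surface, 7 were lower and 0 higher, with a median of -2.44. *bus-1* had 95 and 103 counts in *ikb-1(nr2027)*, against 976 and 968 in WT, a log2 ratio of -3.47 (-3.79 to -3.17), and *bus-5* had 972 and 1055, against 3602 and 3711, a log2 ratio of -2.03. Of 36 *gst* genes, which encode glutathione S-transferases, 6 were lower and 0 higher, with a median of -1.48, and *gst-19* had 11 and 10 counts, against 103 and 109. With the L1 spread and the replicate block, 4 *bus* genes and 0 *gst* genes were called lower.

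The muscle list held ratios of both signs, and the genes given here were chosen after their values were seen. The pharyngeal genes *tni-4*, *myo-2*, *myo-1* and *tnt-4* stood at 2.41, 1.21, 1.21 and 0.94 in *ikb-1(nr2027)*, and the body-wall genes *unc-54*, *myo-3* and *tni-1* at -0.52, -0.61 and -1.79. Other body-wall genes lay above 0, with *unc-22* at 1.45, *unc-89* at 0.74 and *unc-52* at 0.17. Relative to the median of the exon-length bin, *unc-22*, *unc-89* and *unc-52* stood at 0.76, 0.06 and -0.51. On that scale the pharyngeal genes stood at 2.72, 0.53, 0.53 and 1.03, and *unc-54*, *myo-3* and *tni-1* at -1.21, -1.29 and -1.58. Whether the sign went with the kind of muscle was not tested. In *nfki-1(cer1)* over WT the pharyngeal genes stood at 2.09, 0.11, 0.30 and 0.16. *unc-54*, *myo-3*, *tni-1* and *unc-52* stood at -1.10, -0.97, -2.53 and -0.11 in that strain. In the double mutant the pharyngeal genes stood at 2.40, 1.23, 1.01 and 1.46. The body-wall genes *unc-54*, *myo-3*, *tni-1* and *unc-52* stood there at -0.59, -0.73, -0.69 and -0.002. The genes with the longest exons in the list, *ttn-1*, *unc-89* and *unc-22*, had ratios of 1.74, 0.74 and 1.45 in *ikb-1(nr2027)*. In the double mutant these genes stood at -1.10, -0.67 and -1.08.

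Chromosomes differed in their shares. Genes called higher made up 14.4% of those measured on chromosome I and 14.2% on II, against 7.15% on X, and genes called lower 2.83%, 5.06% and 5.50%. The medians ran from 0.36 on I to -0.45 on X.

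In several close paralogs the paired files of both strains differed in the same direction. *cyb-2.1* had 58 and 323 counts in *ikb-1(nr2027)*, against 3 and 18 in WT, and *sago-2* had 0 and 22, against 3 and 64 in WT. The mutant counts of *gpd-2* were 1795 and 381, against 4318 and 1201 in WT.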
